A study of Mus musculus with 6 samples.

Results

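The comparison set mouse embryonic stem cells (ESC) carrying a Cre-deleted H2A.X gene beside Flox/Flox ESC, in which the gene is flanked by sites for the Cre recombinase and was not deleted. Its members were all 22558 gene names of the table that holds these 2 libraries, of which 12086 were measured, meaning that they reached 1 FPKM in at least 1 of them. FPKM, the unit of the table, divide the fragments of a gene by its length and by the depth of the library. Both lines are of the 129Sv strain, came from embryos and were at passage 25. They grew on feeder cells with the self-renewal factor LIF and were moved to gelatin-coated plates before lysis to leave the feeders behind. Each line gave 1 mRNA sequencing library from Trizol-extracted total RNA. The labels name no agent other than Cre for the knockout and do not say whether a line is 1 clone, so a property of 1 line or 1 culture cannot be told apart from the deletion. Induced pluripotent stem cell (iPSC) lines of a mixed 129Sv/C57 background, at the same passage and treated in the same way, served here as 4 further libraries, for which the labels give no H2A.X genotype. They were labelled 4N- or 4N+, 1 of each from peritoneal fibroblasts (PF) and from tail tip fibroblasts (TTF).

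H2A.X is a variant of histone H2A that takes the place of the usual protein in part of the nucleosomes. Kinases of the ATM family phosphorylate its tail beside a broken DNA end, and the mark holds the adaptor Mdc1 and a chain of repair proteins at the break. ESC divide fast, carry much of this mark even without damage, and can leave the pluripotent state for any lineage of the embryo proper. Trophoblast, the outer layer that builds the placenta, is normally closed to them.

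H2afx, the gene for H2A.X (chromosome 9, 44142798 to 44144156 on mm9), stood at 6.18 FPKM in the knockout and 34.9 FPKM in the Flox/Flox library. The 4 iPSC lines held 75.2 FPKM (4N- PF), 69.1 FPKM (4N+ PF), 65.3 FPKM (4N- TTF) and 70.9 FPKM (4N+ TTF). The knockout library was thus 5.65-fold below its Flox/Flox counterpart in plain FPKM, the direction of the labels, and the Flox/Flox library was itself below all 4 iPSC lines. Signal for the gene was reduced and not absent in the knockout library. The source of the remaining 6.18 FPKM was not tested. Of the other histone variant genes on the list, H2afz, which marks promoters, stood at 9.76 against 20.3 FPKM and H2afy, the macroH2A gene, at 37.6 against 60.5 FPKM. H1f0, a linker histone gene that is on in cells that stop dividing, was higher in the knockout (31.1 against 14.6 FPKM). H2afz has 5 near-identical relatives among annotated transcripts (at least 95% identity over at least 50% of a transcript), which leaves its value uncertain.

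The labelled cell type was checked first. All 9 pluripotency markers of that check were above 1 FPKM in both libraries, with a summed level of 1473 FPKM in the knockout, 2733 FPKM in the Flox/Flox library and 2553 to 2863 FPKM in the iPSC lines. Both cultures thus carried the markers of pluripotent cells, the knockout at the lowest sum of the 6 libraries. The 15 trophoblast markers summed to 1402 FPKM in the knockout against 65.8 FPKM in the Flox/Flox library and 43.9 to 115 FPKM in the iPSC lines. Of these sums, 4 simple epithelial keratins made up 1003 FPKM in the knockout and 41.4 FPKM in the Flox/Flox library. By gene, 13 of the 15 were higher in the knockout, and the factors among them are given singly below. In such bulk samples fewer cells of a type and less RNA per cell cannot be told apart.

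In all, 905 genes (7.49% of those measured) had levels in the knockout 2-fold or more above those in Flox/Flox ESC and 449 (3.72%) had levels 2-fold or more below, on the log2(FPKM + 1) scale used for all log2 ratios and fold thresholds here. Of the 905, 343 lay below 1 FPKM in Flox/Flox ESC and entered through the knockout. At any size, 48.3% of measured genes were higher and 51.7% lower. With 1 library per side nothing here has a replicate check, and every count and median is a description of these libraries. The authors' deposited table, which gives their own call for each name, called 202 names higher (0.895% of 22558) and 8 lower (0.0355%). Effective depth was 39058900 fragments in the knockout and 49856800 in the Flox/Flox library, so that 1 FPKM of a 2000 bp transcript came from 70.2 and 89.5 fragments.

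Base composition and level moved with the ratios. Among 6661 genes that reached 5 FPKM in each of the 2 libraries, the log2 ratio tracked the GC content of the transcript across genes (Spearman's rho 0.47), from a median of -0.47 in the fifth of genes under 44% GC to 0.14 in the fifth at 54.8% GC or more. Set against each iPSC library, the knockout gave a rho of 0.12 to 0.21 and the Flox/Flox library a rho of -0.45 to -0.39. Among these pairs the tilt thus sits mainly with the Flox/Flox library. Tilts also occurred between iPSC libraries: 4N- against 4N+ lines gave a rho of 0.11 (PF) and 0.31 (TTF). Genes below 1 FPKM in Flox/Flox ESC had a median ratio of 0.79 and genes at 100 FPKM or more a median of -0.60. The first group entered through the knockout, so its ratios lie above 0 by the filter. Sorting by 1 side of the ratio also adds to such a slope. By the geometric mean of both libraries, the medians were 0.64 below 1 FPKM and -0.48 at 100 FPKM or more. Beside the median of each whole list below stands the GC-centred median, for which the median ratio of genes of like GC content (20 bins) was subtracted. This correction was chosen after seeing the data. With it 1002 of the 11527 measured genes with a GC value passed 2-fold upwards and 123 downwards. The share of higher genes among those past 2-fold went from 66.8% to 89.1%. This correction also removes the overall shift, a median of -0.20 over genes at 5 FPKM or more in each library. With that shift alone subtracted, 1412 genes passed upwards and 202 downwards, and the share was already 87.5%. The cause of the tilt was not tested.

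**Figure D1:**
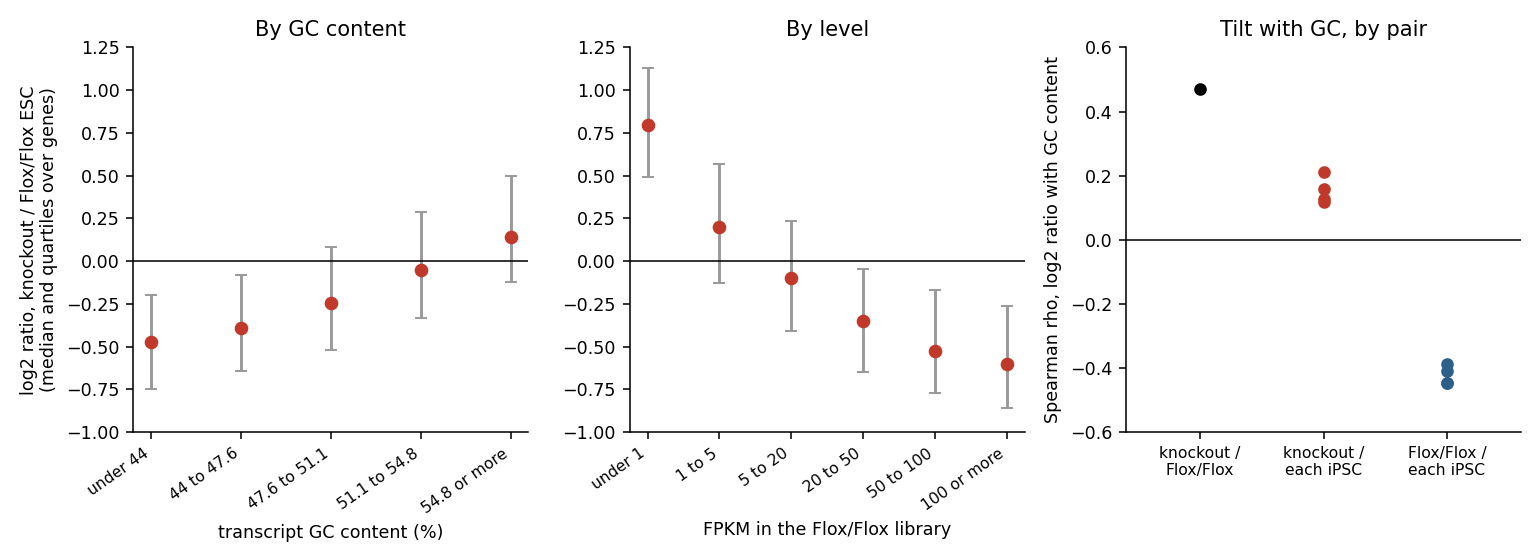
Log2 ratio of knockout over Flox/Flox ESC by transcript GC content (left, genes that reached 5 FPKM in each) and by level in the Flox/Flox library (middle, all measured genes), as median and quartiles over genes; right, Spearman's rho between log2 ratio and GC content for each pair that holds an ESC library, 1 point per pair. Medians climb from -0.47 to 0.14 with GC content and go from 0.79 down to -0.60 with level, and the pairs with the Flox/Flox library lie farthest from 0. Genes below 1 FPKM in the Flox/Flox library entered through the knockout, so their ratios lie above 0 by the filter.

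The iPSC lines served to place both ESC libraries. Over 12575 genes at 1 FPKM or more in any of the 6 libraries, the knockout lay at least 2-fold above all 5 others for 369 genes (2.93%) and at least 2-fold below them for 36 (0.286%). For the Flox/Flox library the numbers were 42 and 24, and no iPSC line exceeded 35 and 12. Of the 905 genes higher in the knockout, 820 were above all 4 iPSC lines in the knockout (31.1% of all measured genes were), and in the Flox/Flox library 465 were below all 4 (27.0% were) and 365 within the iPSC range. Of the 449 lower genes, 326 were below all 4 iPSC lines in the knockout (33.2% of all measured genes were), and 304 were above all 4 in the Flox/Flox library (28.1% were). Since the ratio of the same 2 ESC libraries chose these genes, shares above those of all genes are built in and describe the genes only. The tables of the ESC and of the iPSC may have been scaled separately, which limits every level set across them.

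**Figure D2:**
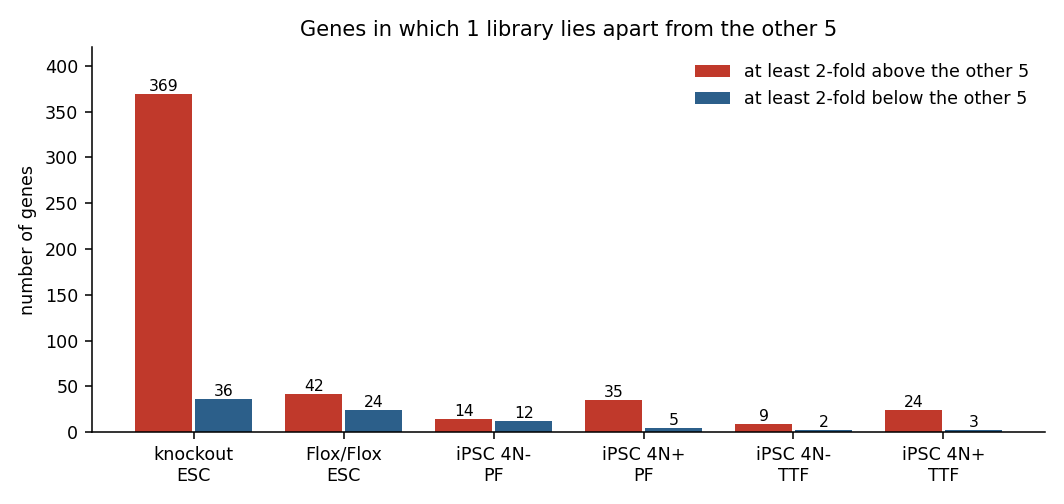
Number of genes (y axis) for which each of the 6 libraries (x axis) was at least 2-fold above (red) or below (blue) the other 5, of 12575 genes. The knockout ESC library has 369 genes above, against 9 to 42 for the others.

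Trophoblast genes had the highest median among lists of 10 or more measured genes. Of 32 measured members of the list, 20 were at least 2-fold higher and none 2-fold lower, with a median log2 ratio of 1.90 (GC-centred 2.12), beside -0.03 (GC-centred 0.14) for all measured genes. Since 10 of them lay below 1 FPKM in Flox/Flox ESC, the median over all 42 listed genes, 0.94, is the one free of the filter. The roles differed. All 4 simple epithelial keratins were higher, with a median of 4.40: beside Krt8 and Krt18, their partners Krt7 (83.1 against 3.47 FPKM) and Krt19 (72.8 against 4.36 FPKM) were far above the iPSC range of 1.39 to 6.19 FPKM and 6.82 to 13.6 FPKM. Among transcription factors 6 of 14 were 2-fold higher (median 0.88), and Cdx2, Eomes and Elf5, factors of the trophoblast stem cell state, were not among them. The homeobox genes Rhox6 and Rhox9, both higher, were grouped with the surface and secreted genes of the list and not with these 14. Cdx2, which opens the trophectoderm program, stood at 0.765 against 0.0930 FPKM, Eomes at 1.79 against 2.65 FPKM, and Elf5, which keeps trophoblast stem cells in place, at 0.0382 against 0.0199 FPKM. Tead4, the partner of YAP upstream of Cdx2, stood at 4.78 against 4.31 FPKM, and Ascl2, a factor of the spongiotrophoblast, at 1.65 against 1.81 FPKM. Hand1 and Gata2, factors of differentiated giant cells, were high, and so was the placental membrane gene Plac1 (4.58 against 0.301 FPKM, iPSC 0.00 to 2.06 FPKM).

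Genes of later placental function were not on. None of 20 genes of the prolactin, Psg, Ceacam and placental cathepsin families reached 1 FPKM in either library, and their summed level was 2.44 FPKM in the knockout and 0.641 FPKM in the Flox/Flox library, with 10 and 15 listed at 0. The X-linked homeobox genes Rhox6 and Rhox9, which are expressed in placenta, were high (149 against 8.02 FPKM for Rhox9, iPSC 2.29 to 13 FPKM), while Rhox13 of the same cluster stood at 1.05 against 0.516 FPKM. High levels were thus found for keratins, Rhox6 and Rhox9, surface and secreted genes and a few late factors, while Cdx2 and the placental hormone genes stood under 1 FPKM.

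Epithelial junction genes were higher to a smaller extent. Of 23 measured, 7 were at least 2-fold higher and none 2-fold lower (median 0.69, GC-centred 0.56, and 0.60 over all 24 listed). In Flox/Flox ESC 3 of the 23 lay below 1 FPKM. Desmoplakin (Dsp), which ties keratins to desmosomes, stood at 10.5 against 0.917 FPKM (iPSC 2.59 to 4.79 FPKM). The claudins Cldn4 (153 against 41.8 FPKM) and Cldn3 (5.29 against 0.852 FPKM), which seal tight junctions, were also above their iPSC ranges of 17.0 to 23.8 FPKM and 0.587 to 0.872 FPKM. Dsc2, a desmosomal cadherin and among the 3 largest ratios of chromosome 18, stood at 6.54 against 0.852 FPKM. These junction genes were above both the Flox/Flox library and all iPSC lines.

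**Figure D3:**
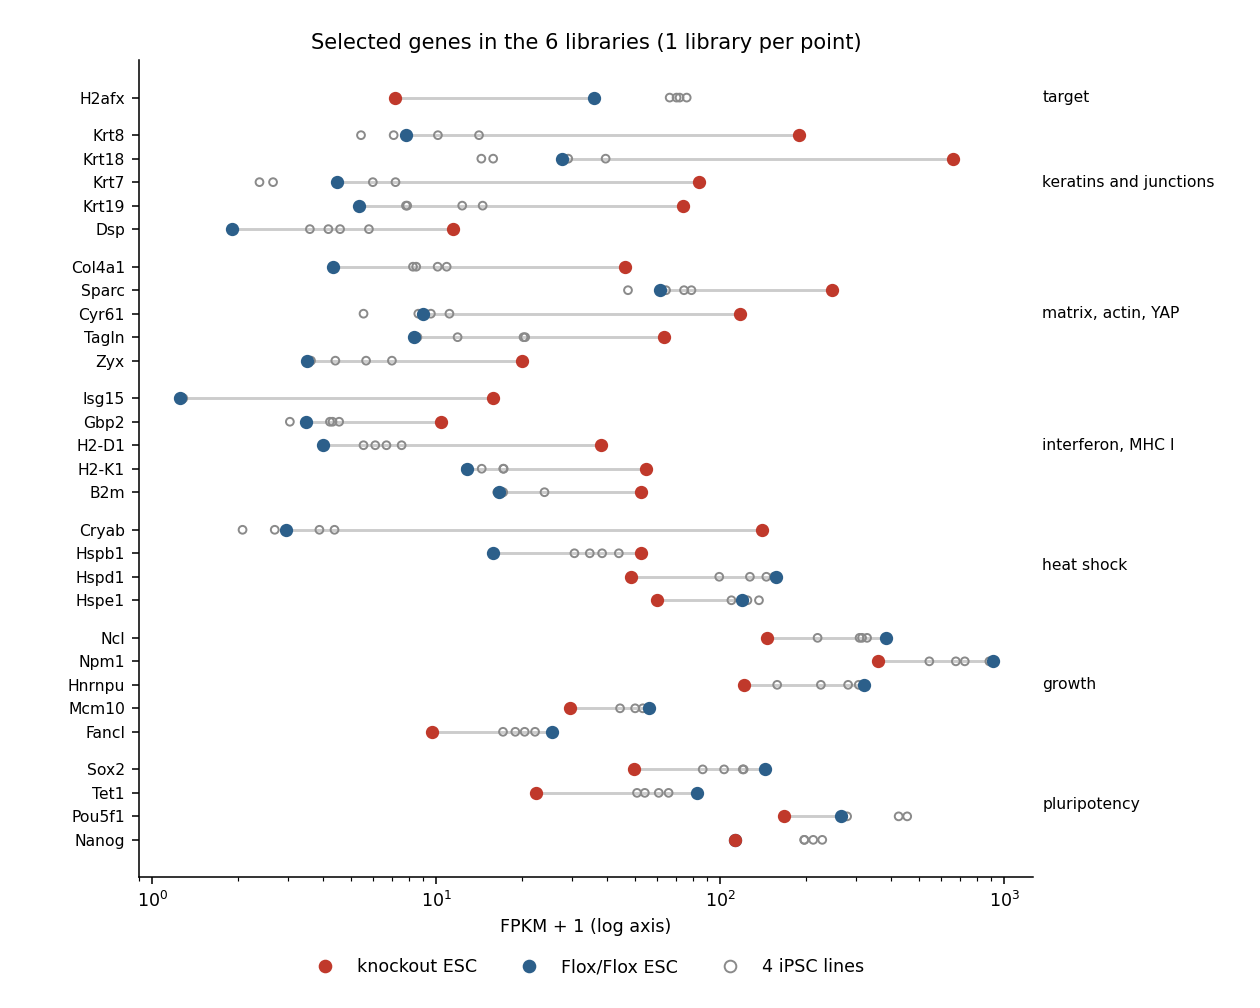
FPKM + 1 on a log axis (x) for selected genes (y) in the knockout ESC (red), the Flox/Flox ESC (blue) and the 4 iPSC lines (open circles), 1 point per library. For keratin, matrix, interferon and MHC class I genes the knockout lies right of the other 5 libraries, for Ncl, Npm1, Fancl and Tet1 left of them, and for Nanog the 2 ESC points coincide at 111 FPKM, left of the iPSC lines.

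Matrix and adhesion genes formed a further group. Of 21 measured basement membrane genes 12 were at least 2-fold higher and none 2-fold lower (median 1.18, GC-centred 1.04), and only 1 of them lay below 1 FPKM in Flox/Flox ESC. Next to the collagen IV pair, Sparc, which binds collagen IV in the matrix, stood at 247 against 60.2 FPKM (iPSC 46.3 to 78.1 FPKM). Integrins, the receptors that hold cells to that matrix, had 3 of 11 genes 2-fold higher (median 0.75, GC-centred 0.95, and 0.61 over all 14 listed). Of the 11, 4 lay below 1 FPKM in Flox/Flox ESC and entered through the knockout. Itga3, a laminin receptor chain, stood at 28.6 against 6.57 FPKM (iPSC 7.95 to 13 FPKM), and the fibronectin receptor chain Itga5 at 17.9 against 7.73 FPKM (iPSC 12.8 to 18.1 FPKM). Itga3 was thus above all 5 other libraries, whereas Itga5 in the knockout lay at the top of the iPSC range.

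Genes of the actin skeleton and of the transcription factors it controls had the second highest median after trophoblast genes among lists of 10 or more measured genes. Of 29 measured members 22 were at least 2-fold higher and none 2-fold lower (median 1.40, GC-centred 1.48, and 1.36 over all 31 listed). The knockout was above all 4 iPSC lines for 25 of them, and the median of the Flox/Flox library against the iPSC lines was -0.24. YAP, which enters the nucleus in spread cells and works with TEAD factors, has the matricellular genes Cyr61 and Ctgf as classical targets. Serum response factor (SRF), set free by actin assembly, drives contractile genes such as Tagln. Zyx, an adhesion plaque protein, stood at 19 against 2.51 FPKM (iPSC 2.62 to 5.98 FPKM), and F3, the tissue factor that starts coagulation, at 15.4 against 2.76 FPKM (iPSC 2.64 to 3.03 FPKM). Csrp1, an actin bundling protein and a known SRF target, stood at 180.3 against 23.0 FPKM (iPSC 24.2 to 36.8 FPKM). By role, 15 of 19 contractile and actin-binding genes and 7 of 10 YAP targets were 2-fold higher, with medians of 1.40 and 1.44.

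Promoter windows of RefSeq (GRCm38.p6, from 250 bases before to 50 after the start of each gene) were searched on both strands for the binding letters of these factors. GGAATG, read by TEAD factors, was in 6 of 10 YAP targets that have a window and in 16.6% of all 27025 genes. The CArG box of SRF was in 4 of 17 contractile genes and in 1.81% of all genes. Cyr61 and Cnn2, the gene of a calponin that binds actin (58.4 against 15.9 FPKM), are shown because each carries a match and was over 3-fold higher. Capitals mark the match, which in Cyr61 is GGAATG read on the other strand and begins 103 bases before the start, and in Cnn2 is the CArG box, 56 bases before it.
Cyr61 (chr3:145650029-145650128, minus strand): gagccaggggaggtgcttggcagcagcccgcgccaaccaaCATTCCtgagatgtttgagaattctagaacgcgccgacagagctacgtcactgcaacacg
Cnn2 (chr10:79988500-79988599, plus strand): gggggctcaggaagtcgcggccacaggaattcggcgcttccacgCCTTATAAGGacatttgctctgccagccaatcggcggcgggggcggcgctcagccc
A match describes these letters only and says nothing of binding in these cells.

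Annexins and S100 proteins, which bind membranes and calcium, were all higher: 16 of 16 measured, 10 at least 2-fold (median 1.11, GC-centred 1.32). Anxa1 stood at 101 against 4.95 FPKM (iPSC 1.97 to 16.7 FPKM), Anxa3 at 41.3 against 3.74 FPKM (iPSC 3.45 to 9.64 FPKM), Anxa5 at 42.7 against 7.43 FPKM (iPSC 7.12 to 8.71 FPKM) and S100a6 at 185 against 33.8 FPKM (iPSC 29.7 to 61.1 FPKM). All 4 lay above every iPSC line. The membrane repair genes Dysf (9.08 against 0.705 FPKM) and Myof (11.5 against 0.620 FPKM) and the scaffold gene Ahnak (20.8 against 3.93 FPKM), among the largest ratios of their chromosomes, were higher as well.

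Lysosomal genes were mostly higher. Of 30 measured, 28 were higher and 10 at least 2-fold so (median 0.63, GC-centred 0.85). The cathepsin proteases Ctsb (49.4 against 14.8 FPKM) and Ctsd (226 against 88.0 FPKM), the legumain gene Lgmn (57.1 against 22.6 FPKM) and the membrane gene Cd63 (57.9 against 23.9 FPKM) led the list. In the iPSC lines they ranged from 17.1 to 24.4 FPKM, 92.4 to 119 FPKM, 22.9 to 24.3 FPKM and 19.5 to 29.0 FPKM, so each was above all 5 other libraries in the knockout. The authors' deposited table called none of these 30 genes.

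Part of the interferon program was higher. Of its 24 measured members 7 were at least 2-fold higher and 1 2-fold lower (median 0.83, GC-centred 1.01, and 0.66 over all 30 listed), with 8 below 1 FPKM in Flox/Flox ESC. The summed level of the list hardly differed, at 644 against 634 FPKM (iPSC 510 to 682 FPKM). Among receptors, sensors and factors 1 of 11 was 2-fold higher (median 0.41), against 6 of 13 stimulated effectors (median 0.99). Of these 13 effectors 6 lay below 1 FPKM in Flox/Flox ESC, and the most abundant one was lower in the knockout (203 against 269 FPKM). Isg15, a ubiquitin-like modifier, stood at 14.8 against 0.254 FPKM (iPSC 0.245 to 0.286 FPKM), and Usp18, the protease that removes it, at 5.77 against 0.154 FPKM (iPSC 0.0288 to 0.115 FPKM). The GTPase gene Gbp2 stood at 9.36 against 2.48 FPKM and the virus tether gene Bst2 at 96.3 against 44.5 FPKM (iPSC 2.05 to 3.55 FPKM and 34.6 to 61.6 FPKM). Cxcl10, a chemokine induced by interferon, stood at 17.3 against 0.630 FPKM (iPSC 0.629 to 0.951 FPKM). Isg15 and Cxcl10 were near 1 FPKM or lower in all 5 other libraries.

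MHC class I genes, whose products show peptides to T cells and are scarce in ESC, were higher too. Of the 12 measured, 6 were at least 2-fold higher and none 2-fold lower (median 0.91, GC-centred 0.84, and 0.72 over all 13 listed). In Flox/Flox ESC 2 of the 12 lay below 1 FPKM. The heavy chain gene H2-D1 stood at 37.0 against 2.99 FPKM (iPSC 4.54 to 6.55 FPKM), its partner H2-K1 at 53.9 against 11.8 FPKM (iPSC 11.7 to 16.3 FPKM), the light chain gene B2m at 51.4 against 15.6 FPKM (iPSC 15.4 to 23.0 FPKM) and the peptide transporter gene Tap1 at 8.03 against 1.71 FPKM (iPSC 1.10 to 3.08 FPKM). All 4 were above the iPSC range in the knockout; in the Flox/Flox library H2-D1 was below that range and the other 3 lay within it. H2-D1 has 1 near-identical relative, so reads of other class I heavy chain genes may enter its value.

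The interferon-stimulated response element, searched as GAAA, any 2 bases and GAAA again on both strands of the RefSeq windows (GRCm38.p6), was in 10 of 15 stimulated effectors with a window and in 3.99% of all 27025 genes. Overlapping matches were counted once per gene. Among MHC class I genes 3 of 11 held it. The windows of Isg15, Gbp2 and B2m are shown because each holds a match and was over 2-fold higher. Of the 5 MHC class I genes with a window that were at least 2-fold higher, only B2m held one. Capitals mark 1 match in each, beginning 72 bases (Isg15), 59 bases (Gbp2, on the other strand) and 139 bases (B2m) before the start.
Isg15 (chr4:156200831-156200930, minus strand): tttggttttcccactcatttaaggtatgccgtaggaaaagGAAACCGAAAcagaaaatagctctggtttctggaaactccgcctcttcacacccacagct
Gbp2 (chr3:142620563-142620662, plus strand): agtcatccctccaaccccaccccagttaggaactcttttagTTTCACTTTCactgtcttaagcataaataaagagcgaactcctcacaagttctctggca
B2m (chr2:122147508-122147607, plus strand): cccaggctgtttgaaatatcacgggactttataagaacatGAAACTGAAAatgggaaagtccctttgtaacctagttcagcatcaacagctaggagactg
In Isg15 further matches overlap the one in capitals.

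Heat shock genes went both ways by role. Small heat shock proteins, which hold unfolded clients without ATP, were higher in all 6 cases and at least 2-fold in 4 (median 1.60, GC-centred 1.47). Cryab, the gene of alpha B-crystallin, stood at 139 against 1.96 FPKM (iPSC 1.08 to 3.38 FPKM), its neighbour Hspb2, which lies head to head with it, at 8.0 against 0.509 FPKM (iPSC 1.06 to 3.11 FPKM), and Hspb1 at 51.6 against 14.9 FPKM (iPSC 29.7 to 42.9 FPKM). The 16 ATP-driven chaperones and heat shock factors had a median of -0.74 (GC-centred -0.31), with 3 past 2-fold upwards and 2 downwards. Hspd1, the mitochondrial chaperonin HSP60, stood at 47.5 against 156 FPKM (iPSC 98.1 to 154 FPKM). Its GC-centred ratio was -1.30, and the knockout value was the lowest of the 6 libraries.

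The heat shock element, searched as GAA, TTC and GAA with any 2 bases between each on both strands, was in none of 4 small heat shock genes with a RefSeq window, in 3 of 11 chaperone and factor genes (Hspd1, Hspe1 and Hsph1, named for holding it) and in 0.662% of all genes. Hspd1 and its co-chaperonin gene Hspe1 (58.8 against 118 FPKM) lie head to head and share the promoter sequence, and both were lower in the knockout, as was Hsph1, an HSP110 chaperone (25.2 against 75.4 FPKM). The window is shown from the Hspd1 side because it serves both genes. Capitals mark 1 of 2 overlapping matches, beginning 139 bases before the Hspd1 start.
Hspd1 (chr1:55088012-55088111, minus strand): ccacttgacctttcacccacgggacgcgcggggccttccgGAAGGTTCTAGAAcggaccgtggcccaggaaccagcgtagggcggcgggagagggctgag
A match, or the lack of one in this window, describes the letters only.

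Other stress programs were split. In the integrated stress response, which answers shortage of amino acids or misfolding, the factor genes Atf3, Ddit3 and Ppp1r15a were at least 2-fold higher, the last, a phosphatase subunit that ends the response, at 16.1 against 7.03 FPKM (iPSC 5.99 to 13.3 FPKM). The enzymes and transporters that the same response switches on were not: 13 of 15 were lower, 2 at least 2-fold (median -0.45, GC-centred -0.35), such as Mthfd2 of one-carbon metabolism (31.6 against 70.9 FPKM, iPSC 26.8 to 71.7 FPKM). Genes for folding in the endoplasmic reticulum had no member past 2-fold among 16. Their median was -0.03, 0.17 after subtracting the overall shift alone and 0.18 when GC-centred. Antioxidant genes had 4 of 26 at least 2-fold lower and 1 higher (median -0.36, GC-centred -0.19). Among them Gclm (24.2 against 60.7 FPKM), of glutathione synthesis, Gsr (19.3 against 47.4 FPKM), which recycles glutathione, and the peroxiredoxin gene Prdx1 (446 against 934 FPKM) stood in the knockout below all iPSC lines (25.0 to 35.4 FPKM, 32.7 to 38.9 FPKM and 609 to 703 FPKM). In the Flox/Flox library they stood above all of them. Gpx2, a glutathione peroxidase with the largest negative ratio of all named genes, did the same (3.06 against 23.0 FPKM, iPSC 5.51 to 8.72 FPKM).

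**Figure D4:**
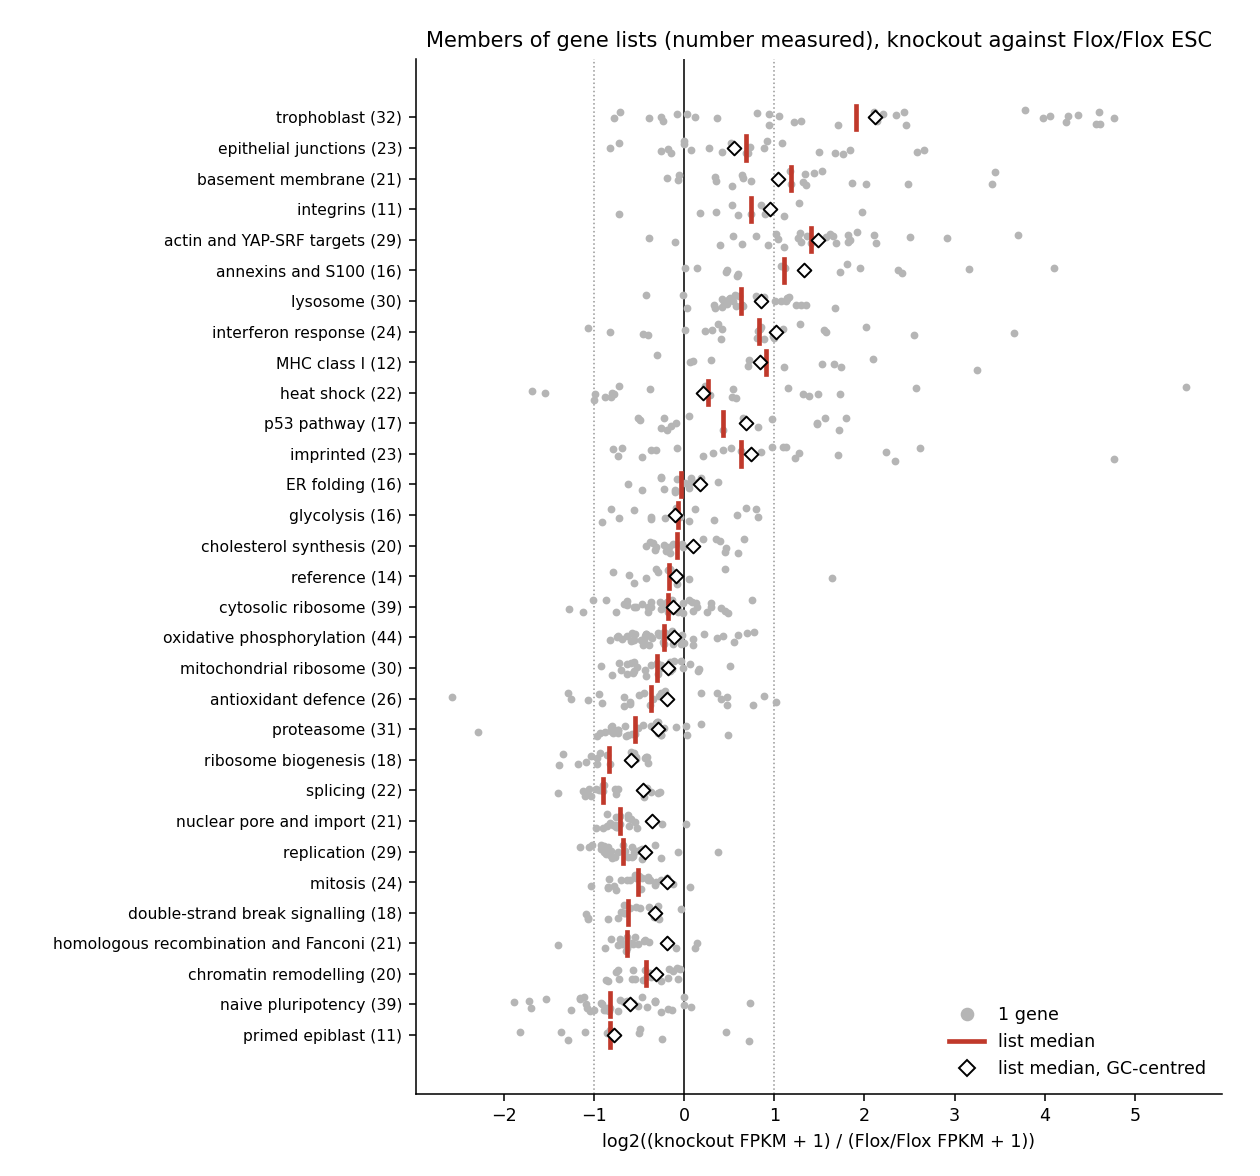
Log2 ratio of knockout over Flox/Flox ESC on the log2(FPKM + 1) scale (x) for each measured member (grey points) of gene lists (y, number measured in brackets), with the list median (red bar) and the GC-centred median (diamond); dotted lines mark 2-fold. Lists from trophoblast to MHC class I have their medians at 0.63 or higher, lists from ribosome biogenesis to primed epiblast at -0.42 or lower, and most diamonds in the lower part lie nearer to 0 than the bars.

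Genes of cell growth were lower by small amounts. Abundant genes as a whole were lower too. By geometric mean of the 2 libraries, their medians were -0.30 (20 to 50 FPKM), -0.45 (50 to 100 FPKM) and -0.48 (100 FPKM or more). The lists here and below were not corrected for level. Among genes at 5 FPKM or more in each library, those of 44 to 47.6% GC had medians of -0.50 (20 to 50 FPKM) and -0.58 (50 FPKM or more). At these levels, genes of 47.6 to 51.1% GC had medians of -0.31 and -0.52. The medians of mitosis, proteasome and mitochondrial ribosome genes lie near these values, and that of respiratory chain genes lies above them. Ribosome biogenesis genes, which build ribosomes in the nucleolus, were lower in 18 of 18 cases, 5 at least 2-fold (median -0.83, GC-centred -0.59). The knockout lay below all 4 iPSC lines for 14 of them. Nucleolin (Ncl) stood at 145 against 381 FPKM (iPSC 219 to 328 FPKM), nucleophosmin (Npm1) at 357 against 908 FPKM (iPSC 543 to 885 FPKM), dyskerin (Dkc1), which modifies ribosomal RNA and holds telomerase RNA, at 43.9 against 101 FPKM (iPSC 63.1 to 115 FPKM) and nucleostemin (Gnl3) at 84.4 against 181 FPKM (iPSC 113 to 171 FPKM). For these 4 the knockout was the lowest of the 6 libraries. Structural genes of the ribosome differed little: 3 of 39 cytosolic subunits were 2-fold lower (median -0.18, GC-centred -0.12), and the 30 mitochondrial subunits had a median of -0.29 (GC-centred -0.18) with none past 2-fold. Rpl30, the subunit with the largest ratio (10.7 against 27.3 FPKM), has 13 near-identical relatives and Rps6 (3.85 against 8.80 FPKM) has 11, which makes such levels uncertain.

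Splicing factors were lower in 22 of 22 cases, 6 at least 2-fold (median -0.89). Their median transcript GC content was 43.5%, against 50.3% over all measured genes, and the GC-centred median was -0.46, about the size of that of replication genes. Hnrnpu, a nuclear matrix RNA-binding protein, stood at 120.4 against 319 FPKM (iPSC 158 to 306 FPKM), Hnrnpa2b1 at 269 against 586 FPKM (iPSC 338 to 519.9 FPKM) and Snrpd1, a core protein of spliceosomal RNPs, at 87.4 against 188 FPKM (iPSC 103 to 154 FPKM). Each was lowest in the knockout and highest in the Flox/Flox library. Nuclear pore and import genes were lower in 20 of 21 cases, none 2-fold (median -0.71, GC-centred -0.36), led by the exportin gene Xpo1 (91.9 against 181 FPKM, iPSC 108 to 169.7 FPKM).

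Proteasome genes were lower in 27 of 31 cases, 1 of them 2-fold (median -0.54, GC-centred -0.29). That gene was the core subunit Psma3, which has 3 near-identical relatives. Respiratory chain genes were lower in 34 of 44 cases and none was 2-fold lower (median -0.23, GC-centred -0.11). Here both ESC libraries lay under the iPSC lines: the knockout was below all 4 for 41 genes and the Flox/Flox library for 27. Glycolysis (median -0.07, GC-centred -0.10) and cholesterol synthesis (median -0.08, GC-centred 0.10) had no gene past 2-fold.

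Genes for proteins that act at a marked break were lower. Of 18 genes of double-strand break signalling, all 18 were lower and 3 at least 2-fold (median -0.62, GC-centred -0.32, with 13 of 18 still lower after that correction). Rnf168, the ubiquitin ligase that extends the signal from H2A.X to 53BP1 and Brca1, stood at 9.16 against 20.3 FPKM (iPSC 12.2 to 16.2 FPKM). The kinase gene Atm, which phosphorylates H2A.X, stood at 8.38 against 15.8 FPKM (iPSC 9.29 to 10.6 FPKM), and its log2 ratio of -0.84 became -0.38 after GC-centring. For both the knockout was the lowest and the Flox/Flox library the highest of the 6. The Flox/Flox library was above all 4 iPSC lines for 12 of the 18 genes and the knockout below all of them for 12.

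The routes of repair differed in how far their medians moved with the GC correction, which also removes the overall shift. With that shift alone subtracted, the medians were -0.29 (end joining), -0.42 (homologous recombination and Fanconi) and -0.06 (excision and mismatch repair). The end joining list of 10 genes, led by Xrcc5 and by Parp1 (76.0 against 128 FPKM), an enzyme that senses strand breaks, had a median of -0.49 that became 0.00 when GC-centred. Homologous recombination and Fanconi genes had a median of -0.63 (GC-centred -0.18). Their largest ratio was that of Fancl, the ubiquitin ligase of the Fanconi pathway (8.68 against 24.6 FPKM, iPSC 16.2 to 21.3 FPKM). Fancd2, its substrate, stood at 16.5 against 31.2 FPKM (iPSC 18.3 to 33.0 FPKM). Excision and mismatch repair genes had 2 of 22 2-fold lower (median -0.26, GC-centred -0.15), among them the mismatch gene Msh3 (5.76 against 12.7 FPKM, iPSC 6.84 to 11.7 FPKM) and the abasic site nuclease gene Apex1 (40.2 against 83.2 FPKM, iPSC 54.6 to 127 FPKM), which has 1 near-identical relative.

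Replication genes were lower in 28 of 29 cases, 3 at least 2-fold (median -0.68, GC-centred -0.43). Pola1, the catalytic subunit of the priming polymerase, stood at 15.0 against 34.6 FPKM (iPSC 22.4 to 28.5 FPKM), the origin recognition gene Orc2 at 37.4 against 78.9 FPKM (iPSC 52.5 to 65.1 FPKM) and Tyms, which makes thymidylate, at 7.10 against 15.4 FPKM (iPSC 11.6 to 16.9 FPKM). The knockout lay below all 4 iPSC lines for 26 of the 29. Mitosis genes were lower in 23 of 24 (median -0.51, GC-centred -0.19), with Top2a, which untangles chromosomes, at 144 against 294 FPKM (iPSC 210.1 to 394 FPKM). Their median is near those given above for genes of 44 to 47.6% GC at 20 FPKM or more. On the side of the brakes, 4 of 6 measured inhibitors of cyclin-dependent kinases were at least 2-fold higher (median 1.30), against none of 18 cyclin, Rb and E2F genes, of which 3 were 2-fold lower. In the knockout Cdkn2a was inside the iPSC range of 5.46 to 14.7 FPKM, and the Flox/Flox library was below it. The p53 list had 5 of 17 genes 2-fold higher (median 0.43, GC-centred 0.69, and 0.27 over all 18 listed), including Ephx1, an epoxide hydrolase (16.7 against 4.98 FPKM, iPSC 8.42 to 16.7 FPKM), and Phlda3, an inhibitor of the kinase Akt (26 against 8.69 FPKM, iPSC 11.9 to 15.8 FPKM). Of 19 apoptosis genes 2 were 2-fold higher, a share near that of all genes, with the survival gene Bcl2l1 at 24.3 against 10.3 FPKM (iPSC 8.83 to 10.7 FPKM).

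Pluripotency genes were lower without being lost. Of 39 genes of the naive state 36 were lower and 11 at least 2-fold (median -0.82, GC-centred -0.60), and the knockout lay below all 4 iPSC lines for 30. By role, 3 of 21 transcription factors and 8 of 18 cofactors and surface proteins were 2-fold lower. Zfp42, a marker of the naive state, stood at 16.2 against 21.9 FPKM, far under the iPSC range of 81.1 to 115 FPKM in both ESC libraries, and Esrrb at 36.7 against 52.7 FPKM (iPSC 66.9 to 87.5 FPKM), also under it in both. Klf4 stood at 8.88 against 17.7 FPKM and Dppa5a at 682 against 1264 FPKM (iPSC 29.3 to 30.5 FPKM and 1019.6 to 1112 FPKM). Genes of the primed epiblast, the next state of the embryo, were not higher in exchange: 4 of 11 were 2-fold lower and none 2-fold higher (median -0.82, GC-centred -0.78, and -0.50 over all 13 listed). Tdgf1, the Nodal coreceptor Cripto, stood at 359.6 against 772 FPKM (iPSC 584 to 756 FPKM).

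**Figure D5:**
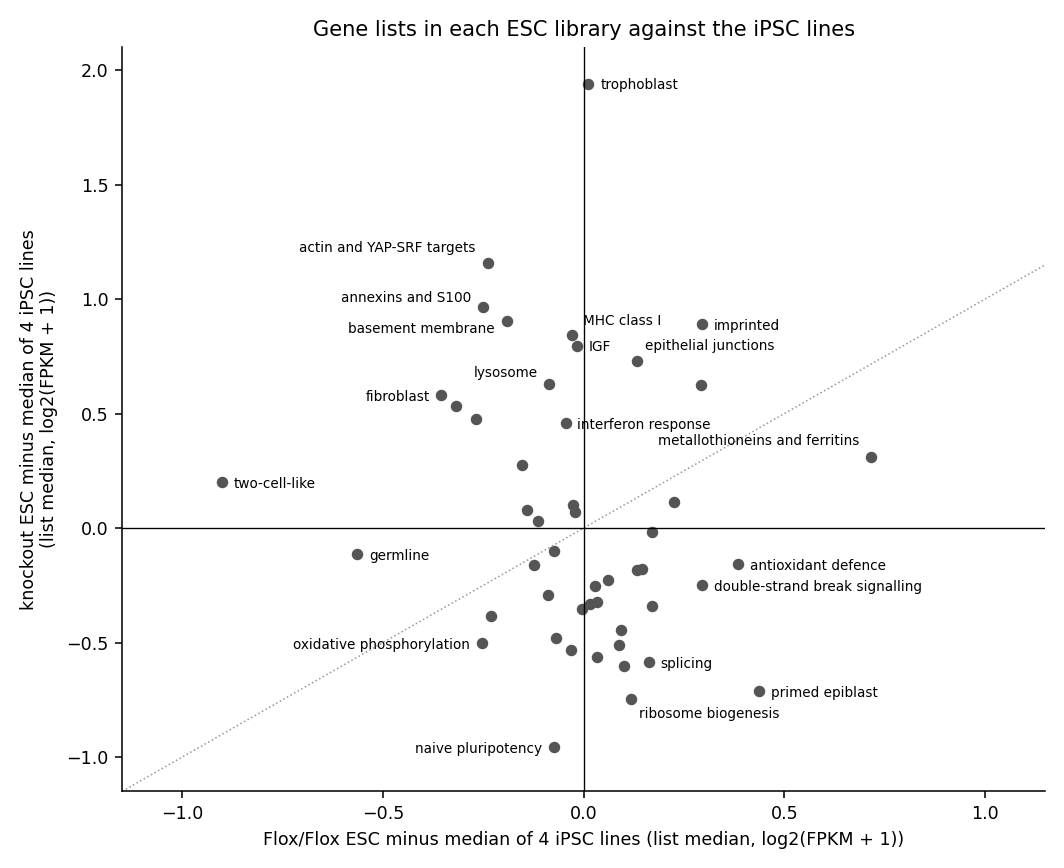
Median level of gene lists with at least 6 measured members in the knockout ESC (y) and the Flox/Flox ESC (x), each minus the median of the 4 iPSC lines on the log2(FPKM + 1) scale, 1 point per list; the dotted line marks equal values. Trophoblast genes lie at 1.94 in the knockout and 0.01 in the Flox/Flox library, naive pluripotency genes at -0.96 and -0.07, and the primed epiblast list departs on both axes (-0.71 and 0.44).

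Signalling genes around this state were mixed. In the Nodal, BMP and TGF-beta list 8 of 26 genes were 2-fold higher and 2 lower (median 0.08, GC-centred 0.25). The BMP targets Id3 (23.7 against 6.48 FPKM) and Id2 (49.7 against 19.6 FPKM), inhibitors of differentiation factors, were above the iPSC ranges of 2.62 to 15.5 FPKM and 6.52 to 10.1 FPKM, and the ligand gene Bmp8b stood at 5.32 against 1.14 FPKM (iPSC 0.599 to 1.18 FPKM). In the FGF and ERK list 4 of 17 were 2-fold higher and 2 lower. The immediate early genes Jun (11.6 against 2.04 FPKM), Fos (9.84 against 2.07 FPKM) and Egr1 (14.9 against 3.52 FPKM) were above all iPSC lines in the knockout (0.582 to 1.16 FPKM, 0.883 to 1.27 FPKM and 2.29 to 7.11 FPKM), and Jun and Fos were so in the Flox/Flox library too. The feedback inhibitor Spry4, which reports sustained FGF signalling in ESC, was lower (5.24 against 19.5 FPKM, iPSC 9.28 to 17.1 FPKM), and the ligand gene Fgf4 stood at 42.9 against 86.8 FPKM (iPSC 60.5 to 84.9 FPKM).

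In the Wnt list 1 of 14 was 2-fold higher, a share near the 7.49% of all measured genes, and 2 were 2-fold lower (median 0.14, GC-centred 0.09). The ligand gene Wnt7b, used in the placenta, stood at 6.86 against 1.35 FPKM (iPSC 0.355 to 0.758 FPKM), the nuclear factor gene Lef1 at 3.09 against 10.7 FPKM (iPSC 2.50 to 15.5 FPKM) and the receptor genes Fzd7 and Fzd5 at 11.7 against 27.9 FPKM and 3.98 against 8.50 FPKM (iPSC 10 to 14.3 FPKM and 9.80 to 14.6 FPKM). In the insulin-like growth factor list 5 of 14 genes were 2-fold higher and none lower (median 0.72, GC-centred 0.71, and 0.32 over all 17 listed), with 3 below 1 FPKM in Flox/Flox ESC: beside the ligand Igf2, the binding protein genes Igfbp6 (5.90 against 0.111 FPKM, iPSC 0.145 to 0.395 FPKM) and Igfbp2 (240.4 against 118 FPKM, iPSC 152 to 169 FPKM) and Igf2r, the receptor that clears Igf2 (27.6 against 12 FPKM, iPSC 10.3 to 13.1 FPKM). Igfbp6 was under 1 FPKM in all 5 other libraries.

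Imprinted genes, read from 1 parental copy, had 9 of 23 2-fold higher and none 2-fold lower (median 0.64, GC-centred 0.74, and 0.33 over all 31 listed). The gene values do not tell the parental copies apart. Genes silenced by DNA methylation outside germ cells had 3 of 15 2-fold higher (median 0.56, GC-centred 0.79, and 0.50 over all 16 listed). In Flox/Flox ESC 3 of the 15 lay below 1 FPKM. Mael, of the piRNA pathway, stood at 20.2 against 8.91 FPKM, just above the iPSC range of 7.5 to 19.3 FPKM in the knockout. Against the iPSC median, the list median was -0.56 in the Flox/Flox library and -0.11 in the knockout. The Flox/Flox library was below all 4 iPSC lines for 7 of the 15 genes, and the knockout above all of them for 5. Hox cluster genes were nearly off: 4 of 23 reached 1 FPKM, 3 of them only in the knockout, and the median over all listed was 0.29. Of the 2-cell-like genes Tcstv1 and Tcstv3, both with near-identical copies, the knockout levels of 10.9 and 7.14 FPKM lay inside the iPSC ranges (2.36 to 16.8 FPKM and 2.97 to 17.2 FPKM), and it was the Flox/Flox library (0.564 and 0.238 FPKM) that lay below all other libraries.

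Chromatin genes were lower by small amounts, and their medians too were not corrected for level. All 20 remodelling genes were lower and none 2-fold so (median -0.42, GC-centred -0.31), led by Actl6a, an actin-like subunit of the BAF complex (43.7 against 80.4 FPKM, iPSC 66.8 to 106 FPKM). The 11 genes of Polycomb complex 2, which methylates histone H3, had a median of -0.73 (GC-centred -0.29) and those of complex 1 a median of -0.11. Ezh2, the methyltransferase, stood at 54.0 against 105 FPKM and its partner Eed at 48.9 against 91.4 FPKM (iPSC 71.3 to 104 FPKM and 71.2 to 113 FPKM). DNA methylation genes had 3 of 10 2-fold lower (median -0.43, GC-centred -0.51). Of histone methylation genes, Kdm4c, a demethylase of H3K9, had the largest ratio (28.3 against 62.0 FPKM, iPSC 30.3 to 39.8 FPKM).

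Markers of other cells that such a culture could hold were read over their whole lists. The fibroblast list had 6 of 19 genes at 1 FPKM or more, all higher in the knockout and 4 at least 2-fold, with 3 below 1 FPKM in Flox/Flox ESC (median 1.06, GC-centred 0.99, and 0.22 over all 19 listed). Its summed level was 26 against 7.63 FPKM (iPSC 9.72 to 40.5 FPKM). The narrower set of 10 feeder markers summed to 6.78 FPKM in the knockout and 1.99 FPKM in the Flox/Flox library, against 4.04 to 19.7 FPKM in the iPSC lines. Of these markers 8 were higher in the knockout and 1, Thy1 (4.90 against 1.55 FPKM), reached 1 FPKM; Col1a2 stood at 0.150 against 0.0690 FPKM, Col3a1 at 0.177 against 0.0337 FPKM, and Lum was listed at 0 in both. The macrophage list had 3 of 15 genes at 1 FPKM or more, all 3 past 2-fold upward, with 2 below 1 FPKM in Flox/Flox ESC (median 1.89, GC-centred 1.82, and 0.02 over all 15 listed): Csf1r (11.3 against 0.131 FPKM), Cd68 (41.6 against 11.6 FPKM) and Cd74 (4.76 against 0.555 FPKM). The list summed to 59.3 against 13.8 FPKM (iPSC 9.44 to 20.3 FPKM), nearly all of it from these genes. The pan-leukocyte gene Ptprc stood at 0.0406 against 0.0278 FPKM, Emr1 at 0.00842 FPKM and Lyz2 at 0.0900 FPKM in the knockout, and Tyrobp and C1qa were listed at 0 there. Csf1r is also a gene of placental trophoblast, and its ligand gene Csf1 was higher too (15.3 against 0.821 FPKM, iPSC 0.460 to 4.64 FPKM).

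The primitive and visceral endoderm list had 7 of 23 genes at 1 FPKM or more, 6 of them higher and 3 at least 2-fold, with 3 below 1 FPKM in Flox/Flox ESC (median 0.77, GC-centred 0.78, and 0.15 over all 23 listed). It summed to 324 against 207 FPKM (all 4 iPSC lines were lower, from 137 FPKM up), most of it from Apoe, a lipid carrier (284 against 192 FPKM). The narrower set of 9 markers summed to 5.73 FPKM in the knockout, 2.35 FPKM in the Flox/Flox library and 2.96 to 8.76 FPKM in the iPSC lines. Gata4 (2.29 against 0.598 FPKM) and Gata6 (0.557 against 0.0872 FPKM), the factors that set this lineage up, stood low, Gata4 in the knockout above the iPSC range of 1.02 to 1.81 FPKM. Sox17 and Sox7 stood under 1 FPKM in both, and Ttr was listed at 0 in the knockout. Lrp2, the endocytic receptor megalin, which acts in visceral endoderm, stood at 23.6 against 7.19 FPKM (iPSC 4.36 to 5.84 FPKM). The endothelial and blood list had 3 of 9 genes at 1 FPKM or more, 2 at least 2-fold higher, and summed to 9.72 against 4.99 FPKM (iPSC 4.21 to 5.49 FPKM), with Cdh5 at 0.386 against 0.0159 FPKM. The part of such cells in the lists above was not tested.

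Among the 20 largest positive ratios outside these lists stood 6 genes. Tgm2, a transglutaminase that crosslinks matrix, stood at 38.7 against 1.07 FPKM (iPSC 4.45 to 6.94 FPKM), Serpinb9b, a protease inhibitor of a family expanded in mouse placenta, at 36.9 against 1.20 FPKM (iPSC 0.235 to 3.79 FPKM) and Tinagl1, a matrix protein, at 34.9 against 1.12 FPKM (iPSC 0.863 to 2.67 FPKM). Sbsn (suprabasin) stood at 34.8 against 1.62 FPKM (iPSC 2.12 to 3.37 FPKM), gelsolin (Gsn), which severs actin filaments, at 45.0 against 2.57 FPKM (iPSC 5.25 to 6.05 FPKM), and Nxf7, an X-linked relative of the RNA export factor, at 17.6 against 0.472 FPKM (iPSC 0.258 to 3.06 FPKM). All 20 were above all 4 iPSC lines in the knockout, and 15 lay within the iPSC range in the Flox/Flox library. The authors' deposited table called 19 of the 20, all but Sbsn.

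The 20 largest negative ratios had another make-up. In the Flox/Flox library 16 of them were above all 4 iPSC lines, and in the knockout 13 were below all of them. Enpp2, the lysophospholipid enzyme autotaxin, stood at 1.20 against 9.47 FPKM, Spna1, the erythroid alpha spectrin, at 2.88 against 15.1 FPKM and Crisp1 at 1.69 against 8.44 FPKM, with iPSC ranges of 0.311 to 1.35 FPKM, 0.956 to 1.85 FPKM and 0.0372 to 0.558 FPKM. These 3 were highest in the Flox/Flox library, and the knockout was not below the iPSC lines for any of them. For Socs2, which dampens cytokine signals (6.48 against 23.9 FPKM, iPSC 10.7 to 21.4 FPKM), Bend3 (2.66 against 11.4 FPKM, iPSC 1.78 to 9.91 FPKM) and Hmgb2, a chromatin protein of dividing cells (19.4 against 65.5 FPKM, iPSC 21.7 to 41.2 FPKM), the Flox/Flox library was again the highest of the 6. The authors' deposited table called 5 of these 20. Among the other genes with values above, Isg15, Gpx2, Hspd1, Hspe1, Hnrnpa2b1, Cd63, Lyz2, Enpp2, Socs2 and Sbsn have 1 near-identical relative each, Hspb1 and Prdx1 have 2, Npm1 has 3, and Dppa5a and Hmgb2 have 5, so that their levels are uncertain in the same way as that of H2afz.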

How the data were processed

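Total mRNA of 2 ESC lines and 4 iPSC lines was sequenced, 1 library each. The deposited values are FPKM per gene name, in 3 tables of 1 library pair each, a unit read from the tables' layout. The submitters' processing notes name CASAVA, TopHat2 and mm9; the quantifier, versions and strandedness were not given in the sources used here. The authors' deposited p-values, q-values, log2 fold changes and test statistics compare the 2 libraries, and of them only the call was used. The tables may have been scaled separately, and no column came from a sample outside the series.

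Gene names that reached 1 FPKM in at least 1 of the 2 ESC libraries counted as measured, and ratios are log2((knockout + 1)/(Flox/Flox + 1)), called at 2-fold. With 1 library per side no test was made, and no count has a replicate check. Fragments behind a value were recovered from the steps between low values of receptor genes. All 117 and 68 values tested lay within 0.05 of a whole number, which covers counting only. Of them, only 44 and 26 had no part in the fit and serve as a check. GC content came from GENCODE M21 transcripts and was known for 95.4% of measured genes. Promoters came from RefSeq (GRCm38.p6), a later build than mm9. Copies are transcripts of at least 300 bp matched at 95% identity over 50% of their length (BLAST 2.17.0). Scripts (Python 3.11.15, pandas 2.3.3, numpy 2.4.6) were tested on simulated data.

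Members and the 55 gene lists were chosen with earlier results of these data known. Named genes are H2afx, the 20 largest ratios each way and the 4 largest per list among genes at 5 FPKM or more, the 3 largest of each chromosome, the cell type markers and the authors' lower calls. Cnn2, Hspe1, Hsph1, Rhox13 and Cd74, and the families in the closing section, were chosen after values were seen. Alternatives were another pseudocount, filter, fold and centring. A few genes that this rule names are not reported here.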

Additional observations from a re-analysis of the deposited data

How the results depend on the processing

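Both main counts move with the settings, as ratios of 1 library to 1 library do. The 905 genes at least 2-fold higher became 1586 with a pseudocount of 0.1, 571 with a filter of 5 FPKM, 1412 after centring on the median of well expressed genes (5 FPKM in each library), 2154 at 1.5-fold and 285 at 3-fold. The 449 lower genes became 202 after centring, 123 after GC-centring, 1927 at 1.5-fold and 85 at 3-fold. The share of higher genes among those past 2-fold was 66.8%, 71.4% with the pseudocount of 0.1, 57.8% with the filter of 5 FPKM, 87.5% after centring and 89.1% after GC-centring, the last chosen after seeing the data. Genes for which the knockout lay 2-fold below all 5 other libraries went from 36 to 23 after centring. The end joining median turned from -0.49 to 0.000427721 with GC-centring; under the settings run it was the only list median past 0.3 in size to change sign. GC-centring moved 185 named genes by more than 0.1 and 68 by less. Centring subtracts the same log2 value (-0.20) from every gene, so that all 255 moved by construction. No paired analysis was possible because each group holds a single library and the 2 share fewer than 2 replicate numbers. Leaving a library out was likewise not run, since it leaves no comparison. Depth limits genes under 1 FPKM most, where few fragments stand behind a value.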

Other observations

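Histone genes of the replication-dependent clusters and a protease inhibitor family gave values outside the lists above. Both families were chosen after values were seen. In both, a gene could pass the filter through the knockout alone, which raises counts and medians of higher genes. How many did so was not counted. Of 27 Serpinb genes 10 were measured, and for 8 of those the knockout was 2-fold or more above Flox/Flox ESC, with a median log2 ratio of 1.69 (GC-centred 2.16) and a summed level of 108 against 53.7 FPKM. Serpinb genes of chromosome 13 include a cluster expanded in mouse and expressed in placenta. Of 63 clustered histone genes 7 were measured, all higher in the knockout and 5 at least 2-fold, with a median of 1.18 (GC-centred 1.34) and a summed level of 58.2 against 16.2 FPKM. Their main mRNAs end without a poly(A) tail and are mostly lost in poly(A)-selected libraries, so these sums reflect only transcripts that were captured. RNA quality and capture were not measured.

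The 18 heterogeneous nuclear ribonucleoprotein (Hnrnp) genes were all lower, 7 at least 2-fold, with a median of -0.94 (GC-centred -0.48), and their summed level was 1213 against 2425 FPKM. Zinc finger genes named Zfp had 94 of 308 measured higher and 214 lower, with a median of -0.29 that became 0.02 after GC-centring. Dual-specificity phosphatase genes (Dusp), which switch off MAP kinases, had 5 of 19 at least 2-fold higher (median 0.53, GC-centred 0.80). Small nucleolar RNA genes of the Snord type summed to 22491 against 57669.7 FPKM; they are shorter than sequenced fragments usually are, and FPKM of such genes depend on size selection.

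By chromosome, over genes at 5 FPKM or more in both ESC libraries, median log2 ratios ran from -0.37 on chromosome 13 to -0.08 on chromosome 17, and after GC-centring from -0.05 to 0.08. Chromosome 13 has a median transcript GC content of 46.1% and chromosome 17 of 52.9%. The level required shifts these values: the GC-centred medians ran from 0.05 to 0.17 over genes at 1 FPKM or more in both, and from -0.18 to 0.04 at 20 FPKM or more. App, the amyloid precursor gene on chromosome 16, stood at 43.5 against 3.08 FPKM, and Cd82, a tetraspanin gene on chromosome 2, at 8.11 against 0.312 FPKM.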
